A study of Mus musculus with 4 samples.

Results

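The genes described here encode proteins on which the stress kinase p38 acts, directly or through its effector kinases. They are the MEF2 transcription factors (Mef2a, Mef2c, Mef2d), the bZIP factors Atf2 and Creb1, the ETS factor Elk1, the MNK kinases (Mknk1, Mknk2) and the mRNA-decay proteins Zfp36, known as TTP, and Zfp36l1. They were taken by symbol, and all 10 were found among the 23390 gene models of the count table and among the 13214 genes with enough counts to test. RNA was sequenced from cultures of mouse osteoclasts, the bone-resorbing cells that form from macrophages under M-CSF and RANKL. The treated group (2 libraries) had 10 µM BMS-582949, an inhibitor of p38α, and the control group (2 libraries) had the solvent DMSO. Both groups came from wild-type C57BL/6J bone marrow, grown for 3 days with L929 supernatant as the source of M-CSF (equivalent to 20 ng/ml), and both then had 40 ng/ml RANKL until harvest on day 4. The design text has the compound present for 3 days and the treatment protocol for 4. Sex and age of the mice, and whether the libraries are separate animals or cultures, are not stated in the labels, so p-values measure the spread between these libraries only, which may be technical.

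The kinase p38 is switched on in macrophages by RANKL and by inflammatory stimuli, and works by phosphorylating proteins. It phosphorylates MEF2 factors and ATF2, which then activate transcription more strongly, and it can phosphorylate ELK1, the partner of serum response factor (SRF). CREB1 is reached through the MSK kinases, translation factor eIF4E through the MNK kinases, and TTP through MK2, which keeps TTP from destroying mRNAs with AU-rich elements. An inhibitor of p38 acts on that phosphorylation, which RNA counts do not show. The values below are the mRNA levels of these proteins and of the genes around them.

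Total counts were 39255925 and 37455168 with BMS-582949 and 35331889 and 36178333 with DMSO. CPM values below are counts scaled to a common library total after TMM correction for library composition, and log2 fold changes are BMS-582949 over DMSO. Calls needed an adjusted p under 0.05 in edgeR's quasi-likelihood test, with Benjamini-Hochberg adjustment over all genes tested. Much of the transcriptome differed between the groups, with 60.2% of all genes tested called (30.5% higher and 29.7% lower). All 10 osteoclast markers checked were lower, with summed levels of 12156 and 12315 CPM with BMS-582949 and 99133 and 103354 CPM with DMSO. Of 10 macrophage markers, 6 were higher and 2 lower, with summed levels of 11143 and 11919 CPM with BMS-582949 and 10574 and 10793 CPM with DMSO. Stromal markers had 1 higher and 6 lower of 9 tested, with 680 and 676 CPM with BMS-582949 and 1010 and 937 CPM with DMSO. Neutrophil, dendritic, B, T or NK, erythroid and mast cell markers each summed to at most 33.8 CPM in any library. Of those tested, 3 of 7 neutrophil, 1 of 2 dendritic and 1 of 1 mast cell markers were called lower by edgeR, and Ly6g, Siglech, Cd3e, Cd8a, Ncr1, Mcpt4 and Fcer1a had no count. In bulk RNA, fewer cells of a type and less RNA per cell cannot be told apart. The part of these marker shifts in the results below was not tested.

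Of the 10 genes, 3 were called higher with BMS-582949 (Mef2c, Creb1 and Mef2a), 3 lower (Mknk2, Mef2d and Zfp36) and 4 were not called (Atf2, Elk1, Mknk1 and Zfp36l1). That is 6 of 10 called, at the 60.2% of all genes tested, so the share of calls does not set these genes apart. The values of the groups did not overlap for 7 of the 10, against 80.2% of all genes tested. Their median log2 fold change was 0.02, against 0.03 for all genes tested. Calls in both directions stood side by side within the MEF2 family. Of the pairs Creb1 and Atf2, Mknk2 and Mknk1, and Zfp36 and Zfp36l1, the first named was called and the other was not. A minimum log2 fold change of 1 left 2 members called, Mef2c and Creb1, both higher, and 0 lower, where 21.3% of all genes tested were called (9.94% higher and 11.3% lower).

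**Figure D1:**
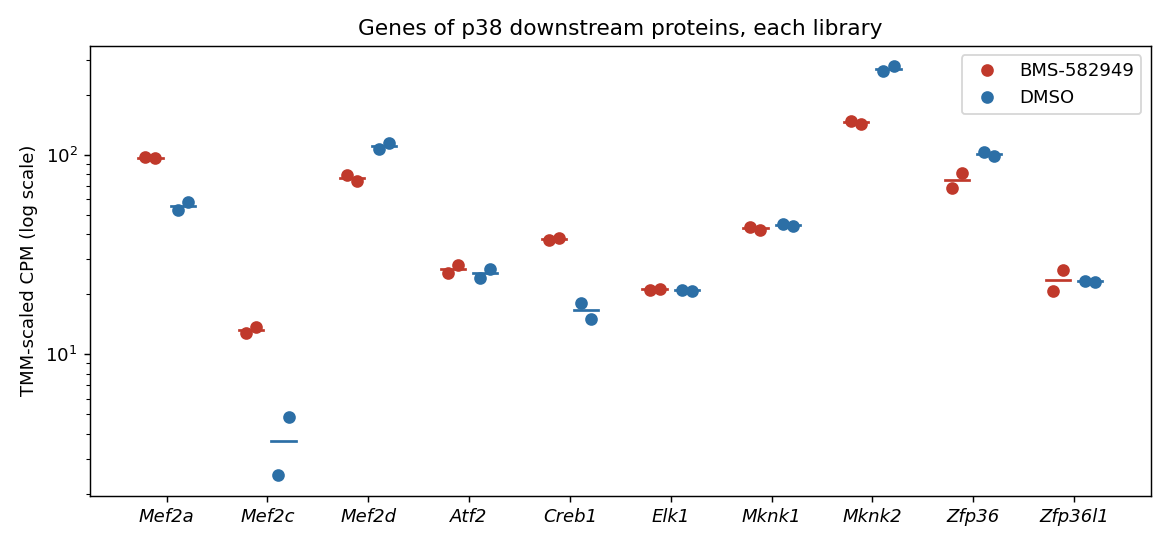
TMM-scaled CPM (log axis) of the 10 genes in each library, with BMS-582949 in red left of DMSO in blue; points are libraries and short lines are means of 2. Mef2a, Mef2c and Creb1 lie higher with BMS-582949, Mef2d, Mknk2 and Zfp36 lower, and Atf2, Elk1 and Zfp36l1 overlap.

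These directions are relative to the TMM scale. With scaling by library size only, all genes tested had a median of 0.41. There 7 of the 10 genes were called higher and 1 (Mknk2) lower, where 67.9% of all genes tested were called (51.0% higher and 17.0% lower). Under it Atf2, Elk1, Mknk1 and Zfp36l1 became calls (log2 fold changes of 0.45, 0.39, 0.32 and 0.41), and Mef2d and Zfp36 lost theirs (-0.16 and -0.05, adjusted p = 0.062 and 0.57 in edgeR). The genes that rose have long and AT-rich transcripts, with annotated exon lengths of 13742 to 15715 bases and GC contents of 39.6% to 42.0%. Those that fell have exon lengths of 3470 to 5985 bases and GC contents of 54.1% to 60.3%. After removal of the GC and length trend of each library by loess, each of the 10 genes had the same call as with TMM alone. Of all genes in that fit 61.5% were called, 32.1% higher and 29.5% lower.

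**Figure D2:**
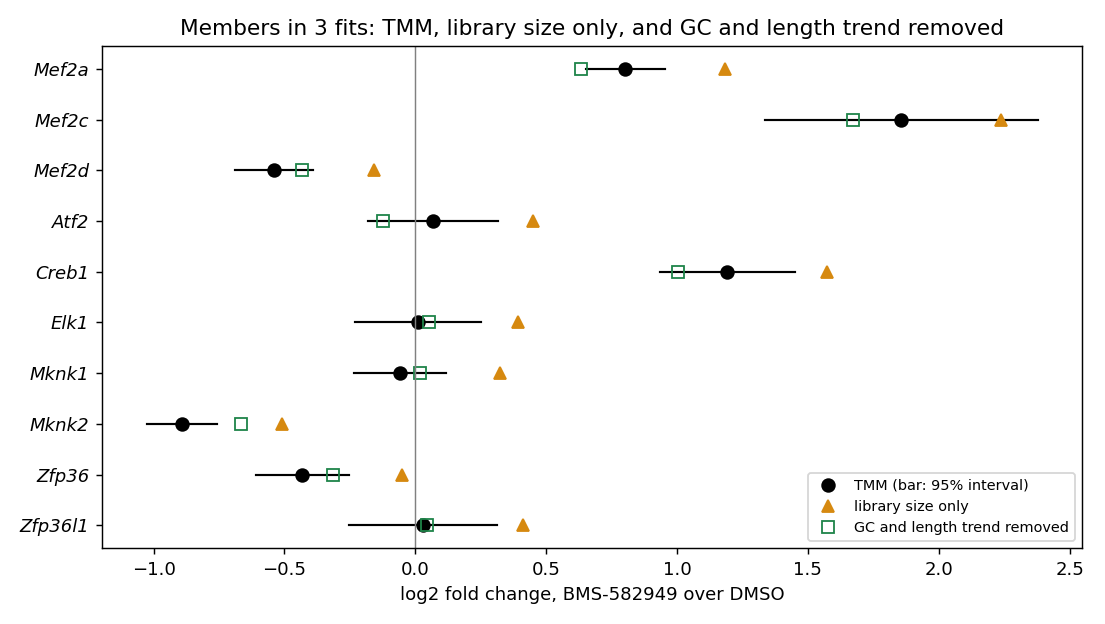
Log2 fold change of each gene, BMS-582949 over DMSO, in 3 fits: TMM with its 95% interval (black), library size only (triangles) and the GC and length trend removed (squares). Library size only shifts every gene to the right, and Mef2d and Zfp36 come close to 0 there.

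The MEF2 proteins are MADS-box transcription factors named for muscle, and MEF2C is also a regulator of myeloid and B cells. Mef2c (ENSMUSG00000005583, GRCm38 chromosome 13, 83504034 to 83667080) had 581 counts in each BMS-582949 library, or 12.8 and 13.7 CPM, against 77 and 153 counts, or 2.48 and 4.85 CPM, with DMSO. Both treated libraries lay above both DMSO libraries, which themselves differed more from each other than the treated ones. The log2 fold change was 1.86 ± 0.24 (SE, n = 2 each, edgeR adjusted p = 2.5e-05), and it was 1.45 without DMSO replicate 1 and 2.42 without DMSO replicate 2.

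Mef2a (ENSMUSG00000030557, chromosome 7, 67231163 to 67372858) had 97.4 and 96.3 CPM with BMS-582949 and 53.2 and 57.9 CPM with DMSO. The groups were far apart relative to their spread, and the log2 fold change was 0.80 ± 0.07 (SE, edgeR adjusted p = 7.2e-07). Mef2d (ENSMUSG00000001419, chromosome 3, 88142372 to 88172086) went the other way. It had 79.5 and 73.7 CPM with BMS-582949 and 107.7 and 115.1 CPM with DMSO, a log2 fold change of -0.54 ± 0.07 (SE, edgeR adjusted p = 2.3e-05). The groups did not overlap, and exons of Mef2d share 8.87% of their length with a model on the opposite strand. Mef2b, the remaining family member, had 2 and 6 counts with BMS-582949 and 3 and 1 with DMSO, too few to test.

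Of the 10 genes' promoter windows (13 windows of 300 bases around RefSeq starts, GRCm38.p6), only that of Mef2a held the MEF2 site, the element the family binds, searched on both strands. The site occurs in 3.19% of all 32851 windows. It is shown in capitals because it lies in the promoter of a member of the family itself, where it begins 2 bases before the annotated start and runs across it (minus strand, chr7:67372809-67372918):
Mef2a: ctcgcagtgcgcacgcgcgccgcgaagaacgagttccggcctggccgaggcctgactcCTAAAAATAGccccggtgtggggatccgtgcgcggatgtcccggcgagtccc

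Class IIa histone deacetylases hold MEF2 factors in a repressed state, and the genes of those named here were called in both directions. Of 8 genes for these and other MEF2 partners, 5 were called higher and 2 lower (median log2 fold change 0.53). Of all genes tested, 30.5% were called higher and 29.7% lower. In a test against a change of 1.5-fold, 1 of the 8 was higher and 0 lower. That test called 11.9% of all genes tested higher and 13.8% lower. Hdac9 rose by 0.97, Hdac4 by 0.85 and Cabin1, a calcineurin-binding repressor of MEF2, by 0.45. Hdac5 changed by -0.22 and Mapk7, which encodes the MEF2 kinase ERK5, by -0.29 (edgeR adjusted p = 0.011 and 0.038). Neither was called once the GC and length trend was removed, both were above 0 with library size only, and Mapk7 was not called without DMSO replicate 1 (adjusted p = 0.13), DMSO replicate 2 (0.087) or BMS-582949 replicate 2 (0.12), with the replicate number as a block (0.066) or in DESeq2 (0.063). Of the Hdac4 exon length, 22.4% is shared with an antisense model.

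Of 8 genes listed, from general knowledge, as MEF2 targets, 4 were called higher and 1 lower (median 0.49, and 0.79 without DMSO replicate 2). Their share of calls was near the 60.2% of all genes tested (30.5% higher and 29.7% lower). In the test against a change of 1.5-fold, 2 were higher and 0 lower, against 11.9% and 13.8% of all genes tested. Tgfbi, a secreted matrix protein gene of macrophages, had 550 and 557 CPM with BMS-582949 and 103 and 117 CPM with DMSO. The Krüppel-like factor genes Klf4 and Klf2 rose by 1.58 and 0.82 and Hdac9 as above, while Jun, of the AP-1 factor, changed by -0.34. The fall of Jun was not called after removal of the GC and length trend (-0.19, adjusted p = 0.053) or with library size only (0.04), and it was -0.20 without DMSO replicate 2. The list had 2 lower calls without BMS-582949 replicate 1 or with the replicate block. Whether MEF2 factors act on these genes in osteoclast cultures was not measured.

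CREB1 and ATF2 bind the cyclic AMP response element. Creb1 (ENSMUSG00000025958, chromosome 1, 64532645 to 64604548) had 1696 and 1623 counts, or 37.5 and 38.4 CPM, with BMS-582949 and 562 and 477 counts, or 18.1 and 15.1 CPM, with DMSO. Each treated library had more than 2 times the CPM of either DMSO library, and the log2 fold change was 1.19 ± 0.12 (SE, edgeR adjusted p = 2.5e-06). Atf2 (ENSMUSG00000027104, chromosome 2, 73816509 to 73892639) had 25.5 and 27.9 CPM with BMS-582949 and 24.0 and 26.9 CPM with DMSO. Its groups overlapped, and its log2 fold change of 0.07 had a 95% interval of -0.18 to 0.32.

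Relatives of these factors moved in both directions. Creb5, of the ATF2 subfamily, had 9.15 and 10.2 CPM with BMS-582949 and 3.22 and 3.65 CPM with DMSO, a log2 fold change of 1.49 ± 0.17 (SE, edgeR adjusted p = 1.1e-05). Atf7, the closest relative of Atf2, rose by 0.29 (edgeR adjusted p = 0.024), a call that ended without DMSO replicate 1 (0.058), DMSO replicate 2 (0.095) or BMS-582949 replicate 1 (0.079). It also ended with the replicate number as a block (0.051), after removal of the GC and length trend (0.11) and in DESeq2 (0.058), and 11.7% of Atf7's exon length is shared with another model. Crem, which encodes activators and repressors at the same element, had 5.93 and 5.84 CPM with BMS-582949 and 12.3 and 10.8 CPM with DMSO (-0.97 ± 0.15 SE). Creb3, a factor anchored in the endoplasmic reticulum membrane, had 69.1 and 66.4 CPM with BMS-582949 and 131.7 and 130.5 CPM with DMSO (-0.95), and 20.8% of its exon length overlaps other models. Atf1 was not called (-0.16, 95% interval -0.34 to 0.02), and it was called lower after removal of the GC and length trend (-0.21) and higher with library size only (0.22).

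Of 5 coactivator genes for CREB, 3 were called higher and 0 lower by edgeR (median 0.50), with 0 lower at an unadjusted p under 0.05 and 0 lower in DESeq2 and limma-voom. That share of calls is near the 60.2% of all genes tested (30.5% higher and 29.7% lower). In the test against a change of 1.5-fold, 0 of the 5 were called. The 3 called with TMM were Crtc3 (0.70), a CREB-regulated coactivator, and the acetyltransferase genes Ep300 (0.54) and Crebbp (0.50). With library size only all 5 coactivator genes were higher (median 0.88), where 51.0% of all genes tested were higher (median 0.41). No promoter window of the 10 genes held the palindromic element TGACGTCA, which occurs in 1.79% of all windows, or the letters TGACG or their complement, which occur in 20.8%.

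ELK1 sits with SRF on the promoters of immediate early genes. Elk1 (ENSMUSG00000009406, chromosome X, 20933395 to 20950608) had 21.002 and 21.3 CPM with BMS-582949 and 21.1 and 20.9 CPM with DMSO. The libraries of both groups were interleaved, with a log2 fold change of 0.01 and a 95% interval of -0.23 to 0.25. Its relatives Elk3, a factor that can repress the same sites, and Elk4 rose. Elk3 had 86.4 and 87.9 CPM with BMS-582949 and 63.2 and 69.9 CPM with DMSO (0.39 ± 0.07 SE, edgeR adjusted p = 4.5e-04), and Elk4 had 17.6 and 17.1 CPM with BMS-582949 and 12.997 and 10.8 CPM with DMSO (0.54).

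Among 9 tested genes for SRF and its early response targets, 2 were called higher and 6 lower (median -0.34; -0.20 with 4 lower without DMSO replicate 2). Among all genes tested, 30.5% were called higher and 29.7% lower. The test against a change of 1.5-fold called 1 of the 9 higher and 1 lower, and 11.9% of all genes tested higher and 13.8% lower. Fos rose by 0.82 and Junb by 0.42, both parts of AP-1. The zinc finger factor genes Egr3 and Egr1 fell by 1.49 and 0.71, Mcl1, which protects cells from apoptosis, by 0.49 and Egr2 by 0.56. Egr2 had at most 5.58 CPM and was not called without DMSO replicate 2 (edgeR adjusted p = 0.24) or BMS-582949 replicate 1 (0.15), in DESeq2 (0.13), with upper-quartile scaling (0.066) or after removal of the GC and length trend (0.053). The list had 3 higher and 3 lower after that removal, where 32.1% of all genes were called higher and 29.5% lower. With library size only it had 4 and 2, where 51.0% of all genes tested were called higher and 17.0% lower.

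The MNK kinases bind the translation scaffold eIF4G and phosphorylate the cap-binding protein eIF4E, and MNK2 is the more constitutively active of the pair. Mknk2 (ENSMUSG00000020190, chromosome 10, 80665327 to 80678112) had 6732 and 6068 counts, or 148.8 and 143.4 CPM, with BMS-582949 and 8217 and 8773 counts, or 264.3 and 278.0 CPM, with DMSO. Its log2 fold change was -0.89 ± 0.06 (SE, edgeR adjusted p = 8.8e-08), and it was the only member called lower in a test against a change of 1.5-fold, where Mef2a, Mef2c and Creb1 were called higher. Of all genes tested, 25.7% were called by that test (11.9% higher and 13.8% lower). Mknk1 (ENSMUSG00000028708, chromosome 4, 115839198 to 115879250) had 43.6 and 42.1 CPM with BMS-582949 and 45.2 and 44.0 CPM with DMSO. Its libraries did not overlap between groups, but the difference was not called (-0.06, 95% interval -0.23 to 0.12), and with library size only its sign was reversed.

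Only the promoter windows of Mknk2 and Zfp36 held a CArG box, the site of SRF (1.63% of all windows, both strands). The stretch of Mknk2 (minus strand, chr10:80676274-80676383) has the box in capitals, beginning 32 bases before the start, where its letters contain TATAAA as well:
Mknk2: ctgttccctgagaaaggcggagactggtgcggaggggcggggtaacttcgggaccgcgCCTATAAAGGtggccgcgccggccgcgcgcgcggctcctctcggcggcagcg

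Of 12 genes for eIF4F subunits, their inhibitors and further MNK substrates, 5 were called higher and 3 lower (median 0.13). The share over all genes tested was 60.2% (30.5% higher and 29.7% lower). The mRNA of eIF4E itself was not called, with Eif4e at 158 and 161 CPM with BMS-582949 and 162 and 154 CPM with DMSO. Eif4ebp1, which encodes the inhibitor of eIF4E that mTOR controls, had 107 and 118 CPM with BMS-582949 and 309 and 278 CPM with DMSO, a log2 fold change of -1.39 ± 0.07 (SE, edgeR adjusted p = 8.2e-09). The genes of the RNA-binding MNK substrates rose, Hnrnpa1 by 1.08, Sfpq by 0.89 and its partner Nono by 0.45, and the eIF4E relative Eif4e3 rose by 1.00. Of the Eif4e3 exon length, 14.8% is shared with a model on the same strand. Eif4e2 and Eif4g3 fell by 0.43 and 0.33, and with library size only they were near 0 and not called (-0.05 and 0.05). That scaling called 9 genes of the list higher and 1 lower, and 51.0% of all genes tested higher and 17.0% lower.

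TTP, the product of Zfp36, binds AU-rich elements in the tails of cytokine mRNAs through its zinc fingers and recruits the CCR4-NOT deadenylase. Zfp36 (ENSMUSG00000044786, chromosome 7, 28376784 to 28380253) had 68.6 and 81.2 CPM with BMS-582949 and 103.1 and 98.9 CPM with DMSO. The treated libraries lay below both DMSO libraries and were the more spread, and the log2 fold change was -0.43 ± 0.08 (SE, edgeR adjusted p = 5.5e-04). Leaving out BMS-582949 replicate 2 gave -0.58, and leaving out BMS-582949 replicate 1 gave -0.32. Zfp36l1 (ENSMUSG00000021127, chromosome 12, 80107754 to 80113013) had 20.9 and 26.6 CPM with BMS-582949 and 23.4 and 23.1 CPM with DMSO. One treated library lay below and the other above both DMSO libraries (log2 fold change 0.03, 95% interval -0.25 to 0.31). Antisense model Gm26669 shares 55.9% of its exon length, and without stated strand use in counting, reads of the pair cannot be told apart. The relative Zfp36l2 had 165 and 186 CPM with BMS-582949 and 144 and 142 CPM with DMSO (0.29, edgeR adjusted p = 2.7e-03), a call that ended without BMS-582949 replicate 2 (0.056). Zfp36l3 had no count in any library.

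Like Mknk2 and Zfp36, Mef2d was called lower, but its window held no CArG box. Whether SRF acts on these genes was not measured. The CArG box of Zfp36 begins 58 bases before its annotated start (minus strand, chr7:28379229-28379338, box in capitals):
Zfp36: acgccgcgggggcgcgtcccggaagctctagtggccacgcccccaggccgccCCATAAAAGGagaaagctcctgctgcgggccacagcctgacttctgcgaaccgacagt

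The element that TTP binds was searched in the longest annotated 3′ UTR of each gene (GENCODE M21), as TATTTAT and as the longer TTATTTATT that contains it, on the transcript strand. The shorter form was present in 6 of the 10 genes (Mef2a, Mef2d, Creb1, Elk1, Zfp36 and Zfp36l1) and in 30.05% of 12516 tested genes, whose UTRs are shorter (median 2284.5 bases for the 10 and 1172 for all). The longer form was present in 4 of the 10 genes and in 8.09% of the tested genes. Of 16 tested mRNAs known as TTP targets, 14 held the shorter form and 9 the longer, at a median length of 698 bases. The first longer site of Zfp36 and Zfp36l1, and of 3 targets whose changes are described below, is given in DNA letters with the sites in capitals. The Zfp36 site is at chr7:28376950-28376979, that of Zfp36l1 at chr12:80108166-80108195, that of Tnf at chr17:35199688-35199717, that of Lif at chr11:4272039-4272068 and that of Vegfa at chr17:46017165-46017194:
Zfp36: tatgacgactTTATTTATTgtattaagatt
Zfp36l1: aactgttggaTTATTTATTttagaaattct
Tnf: tttgcacttaTTATTTATTATTTATTTATT
Lif: aaaggggcctTTATTTATTatttaaaactt
Vegfa: ttgttatcatTTATTTATTggtgctactgt

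Of 20 mRNAs listed, from general knowledge, as TTP targets, 16 could be tested, and 6 were called higher and 3 lower (median 0.21). This share of calls was near the 60.2% of all genes tested (30.5% higher and 29.7% lower). The remaining 4 of the 20, Csf2, Il1b, Il23a and Il6, had at most 0.378 CPM. The median was between 0.39 and 0.51 without either DMSO library or BMS-582949 replicate 1, but -0.10 when the other treated library, replicate 2, was left out. Tnf, the most studied target, had 10.7 and 16.7 CPM with BMS-582949 and 5.86 and 6.72 CPM with DMSO (1.12 ± 0.20 SE, edgeR adjusted p = 3.3e-04; 0.75 without BMS-582949 replicate 2). The largest rises were in Ccnd1 (cyclin D1, 2.50), the chemokine gene Ccl2 (2.38), Myc (1.55) and the kinase gene Pim1 (1.36). Of these, Ccl2 and Myc held neither form of the element, Ccnd1 only the shorter and Pim1 both. Lif had 5.33 and 4.75 CPM with BMS-582949 and 58.6 and 69.6 CPM with DMSO (-3.67), the angiogenic factor gene Vegfa fell by 1.40 and the cyclooxygenase gene Ptgs2 by 1.29. Tnf, Lif and Vegfa, which carry the longer site above, thus did not move in one direction. Antisense models share 23.4% of the exon length of Ccnd1 and 14.5% of that of Pim1.

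Genes for the machinery around TTP were called in 1 direction by edgeR. Of 18 genes for CCR4-NOT subunits, decapping and decay enzymes and other AU-rich element proteins, 12 were called higher and 0 lower (median 0.32, against 0.03 for all genes tested), with 0 lower at an unadjusted p under 0.05. Of all genes tested, 60.2% were called (30.5% higher and 29.7% lower). In the test against a change of 1.5-fold, only 2 of the 18 were higher and 0 lower. That test called 11.9% of all genes tested higher and 13.8% lower. DESeq2 gave 10 higher and 0 lower and limma-voom 12 and 0, while removal of the GC and length trend gave 11 higher and 1 lower. Without DMSO replicate 1, 8 were higher and 0 lower, and with library size only all 18 were higher (median 0.70). Library size only called 51.0% of all genes tested higher and 17.0% lower (median 0.41). The deadenylase gene Cnot6 had 73.6 and 76.8 CPM with BMS-582949 and 37.2 and 35.5 CPM with DMSO (1.05 ± 0.07 SE, edgeR adjusted p = 1.1e-07). Hnrnpd, which encodes the AU-rich element protein AUF1, rose by 1.00, Khsrp, another such protein, by 0.51 and the decapping gene Dcp1a by 0.46. The call of Dcp1a ended without DMSO replicate 1 (0.23, adjusted p = 0.24), and its value was 0.74 without DMSO replicate 2.

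Ratios between related genes within a library do not depend on how libraries are scaled, and the libraries of the groups did not overlap in any of the 6 pairs examined. Among all pairs of tested genes with a count in every library, 78.6% of ratios did not overlap, so this count does not set the 6 pairs apart. Most of them set a called gene beside one uncalled or called the other way. With 2 libraries against 2, an exact two-sided permutation test cannot give a p below 0.333, which is the p of each. Per exon length, Mef2d was at 2.002 and 1.88 times Mef2a with BMS-582949 and at 4.97 and 4.88 times with DMSO. Mef2c was at 0.123 and 0.133 of Mef2a with BMS-582949 and at 0.0435 and 0.0783 with DMSO, and at 0.0615 and 0.0710 of Mef2d against 0.00876 and 0.0160 with DMSO. The MEF2 mRNA pool of the treated cultures thus held relatively more Mef2a and Mef2c and less Mef2d. The ratio of Mknk1 to Mknk2 was 0.253 and 0.254 with BMS-582949 and 0.148 and 0.137 with DMSO. Atf2 stood at 1.14 and 1.22 times Creb1 with BMS-582949 and at 2.23 and 2.99 times with DMSO. Zfp36 stood at 2.83 and 2.63 times Zfp36l1 with BMS-582949 and at 3.80 and 3.69 times with DMSO, where the antisense overlap of Zfp36l1 applies.

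**Figure D3:**
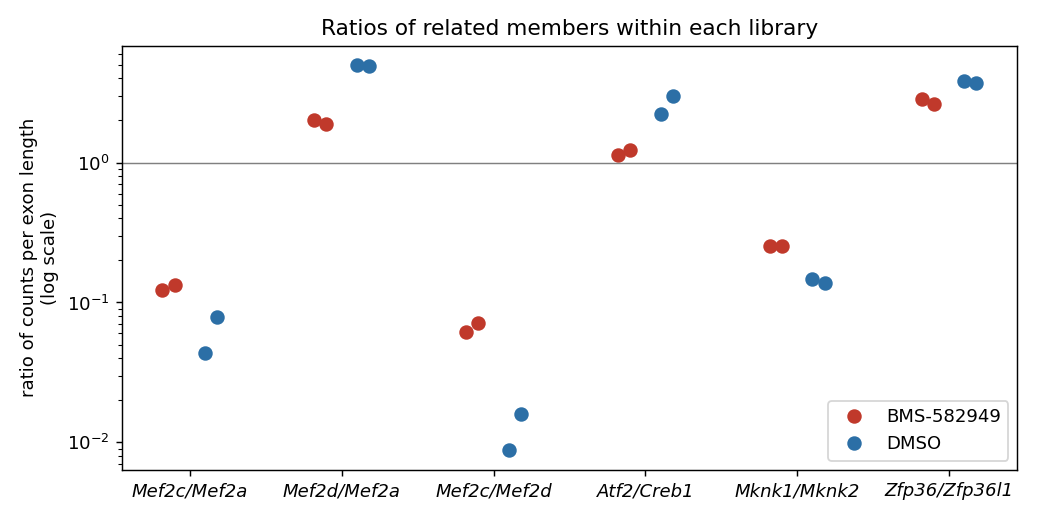
Ratio of counts per exon length between related genes (log axis) in each library, with BMS-582949 in red left of DMSO in blue; the grey line marks equal levels. The groups do not overlap in any of the 6 pairs, and Mef2c/Mef2d differs most, at 0.0615 and 0.0710 against 0.00876 and 0.0160.

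Levels were compared between genes per kilobase of annotated exon, which can understate genes with long alternative exons such as Mef2c. Mknk2 was highest in both groups, at 37.5 ± 0.99 CPM per kilobase with BMS-582949 and 69.7 ± 2.49 with DMSO (SD, n = 2 each), followed by Zfp36 (21.6 and 29.1), Mef2d (12.8 and 18.6), Mknk1 (9.52 and 9.91) and Zfp36l1 (7.94 and 7.77). Mef2c was lowest in both, at 0.846 ± 0.040 with BMS-582949 and 0.233 ± 0.11 with DMSO. Between these, Mef2a stood above Elk1 with BMS-582949 (6.60 against 3.93), while with DMSO the libraries of Mef2a and Elk1 overlapped (3.78 and 3.90). Atf2 (3.26 and 3.11) and Creb1 (2.76 and 1.21) came next. All other neighbours in the order had libraries that did not overlap.

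Upstream of these genes, 7 of 15 tested genes for p38 kinases, their activators and effector kinases were called higher and 2 lower (median 0.14). Their share of calls was near the 60.2% of all genes tested (30.5% higher and 29.7% lower). Leaving out BMS-582949 replicate 1 gave a median of 0.40, DMSO replicate 1 gave 0.22 and DMSO replicate 2 gave 0.08, with 3, 1 and 1 lower calls. Without BMS-582949 replicate 2 the list had 1 lower call. The p38 kinase genes Mapk14, for the compound's target p38α, and Mapk11 rose by 0.58 and 1.12. The apoptosis signal kinase gene Map3k5 rose by 1.61, Rps6ka5, for the CREB kinase MSK1, by 1.53 and Map2k6, for the p38 activator MKK6, by 1.02. Map2k3, for the second activator MKK3, had 220 and 219 CPM with BMS-582949 and 307 and 323 CPM with DMSO (-0.52). Tab1 changed by -0.33 (edgeR adjusted p = 0.018), a call that ended without DMSO replicate 1 (0.062), DMSO replicate 2 (0.064) or BMS-582949 replicate 2 (0.056). With library size only, 11 of the 15 genes were higher and 1 lower, where 51.0% of all genes tested were higher and 17.0% lower. MK2, the kinase that acts on TTP, was not called at the mRNA level (Mapkapk2, -0.12, adjusted p = 0.11).

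**Figure D4:**
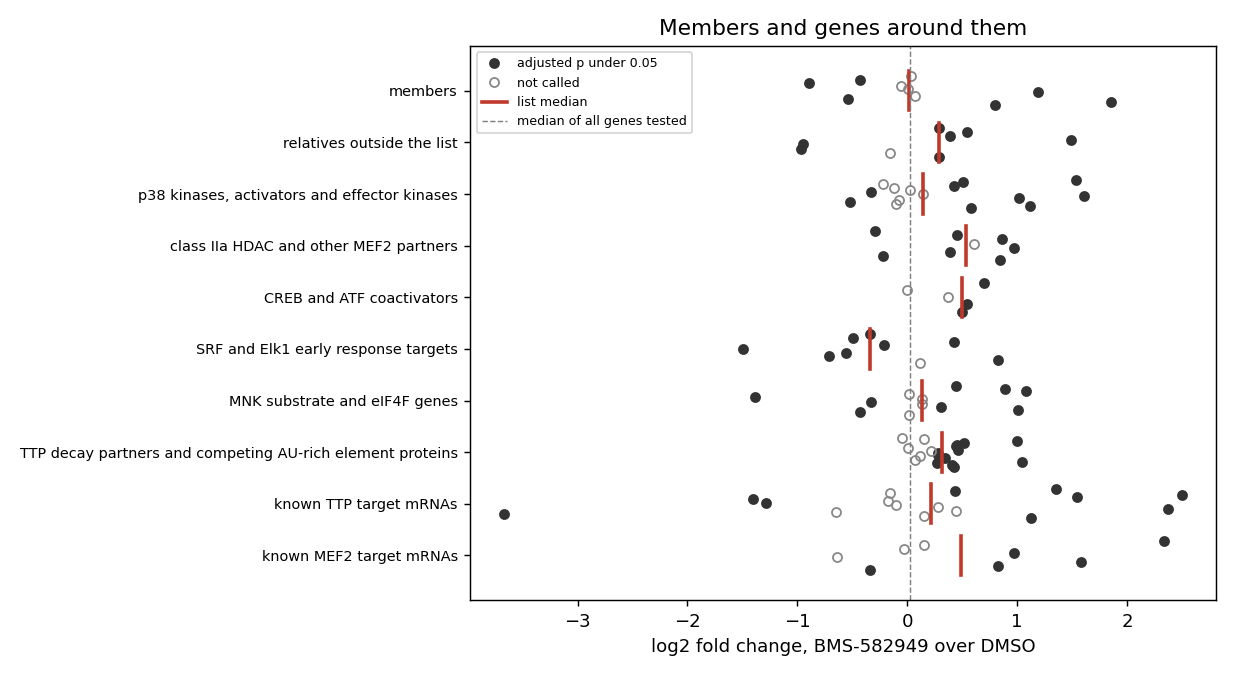
Log2 fold change, BMS-582949 over DMSO, of each tested gene (points, filled where called at an adjusted p under 0.05) in the 10 genes and the lists around them; red bars are list medians and the dashed line is the median of all genes tested, 0.03. In this fit, which called 60.2% of all genes tested, genes for TTP decay partners with other AU-rich element proteins have calls on the right side only. The same holds for genes for CREB coactivators. With the GC and length trend removed, 1 gene of the decay list was called lower. The 10 genes spread from -0.89 to 1.86.

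Profiles over the 4 libraries were compared with those of 8406 genes at a mean of at least 10 CPM, by Euclidean distance of log2 CPM after removing each gene's mean. The closest were Trak1 and Itgav for Mknk2 (distances 0.0072 and 0.025), Slc20a1 and Plagl2 for Mef2a, Serinc5 and Gsn for Mef2d, Smchd1 and Stim2 for Creb1, and Timm10b and Abhd17a for Zfp36. Mef2c had no near neighbour among these genes, with Kif4 and Dna2 closest at 0.26 and 0.33. Its DMSO values were low and unlike each other, and genes with a mean below that minimum were not compared. Those closest to the genes that were not called were Paf1 and Zfp68 for Atf2, Hmgn5 and Ppa1 for Elk1, Cops6 and Mrps18c for Mknk1, and Spindoc and Fam160b1 for Zfp36l1. Itgav, the αv integrin gene of the osteoclast's attachment to bone, had 188 and 186 CPM with BMS-582949 and 339 and 358 CPM with DMSO. With 4 libraries in 2 groups, such closeness mainly means a group difference of like size.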

How the data were processed

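RNA-seq libraries (2 with BMS-582949, 2 with DMSO) were grouped by the treatment label. The authors deposited raw counts per gene model, whole numbers with unequal column sums. Per the submitters' processing notes, Trimmomatic 0.36, HISAT2 2.0.4, DESeq2 1.30.1 and GRCm38 were used; their roles, the counting tool, its annotation and its strand setting are not stated there. Symbols, positions and exon lengths came from GENCODE M21 (GRCm38), promoters from RefSeq (GRCm38.p6). Counts were filtered with filterByExpr (minimum count 10), scaled with TMM and tested in R 4.3.3 with edgeR 4.0.16 (glmQLFit, glmQLFTest, no covariates, 2 residual degrees of freedom) with Benjamini-Hochberg adjustment over all genes. Simulated counts had 200 changed genes of 13048 and a dispersion of 0.005. In them, 78.5% of 1.5-fold, 90.8% of 2-fold and 98.5% of 4-fold changes were recovered, with 14 false calls. A much larger share of genes was called in the real data, so the simulation does not give their error rate. SE is the absolute log2 fold change over the square root of F. DESeq2 1.42.0 and limma-voom (limma 3.58.1) were alternatives. The GC and length trend was a loess per library (span 0.3). The chi-square per degree of freedom between libraries of a group was 13.9 with BMS-582949 and 9.83 with DMSO, so none was treated as 1 library deposited more than once. This does not show separate cultures.

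The members and lists were chosen with earlier results of these data known. Named are the members, their relatives, Mapk14, up to 4 called genes per list and direction with a mean of at least 1 CPM, and the 2 closest profiles per member. The values of 1 gene that this rule takes are not reported here. Tnf, Eif4e, Mapkapk2 and the 4 untested TTP targets were named outside this rule, after their values were seen. The labels' treatment protocol names the compound for all samples, and treated titles transpose digits of its name.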

Additional observations from a re-analysis of the deposited data

How the results depend on the processing

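Members called higher and lower numbered 3 and 3 under DESeq2 size factors, upper-quartile scaling, both filters, DESeq2, limma-voom, no mitochondrial genes, the GC and length trend, the replicate block and each library left out, with the same call for every member. Library size only gave 7 and 1, glmTreat 1 lower, and a minimum log2 fold change of 1 left 0 lower. A higher threshold leaves fewer genes by construction, and the cause of the shift with library size only was not tested. Same-numbered libraries did not deviate together (r = -0.06 across genes), and the block gave 3 and 3 members and, in the other lists, 48 higher and 18 lower. Those totals equal the ones without it, but the block ended the calls of Atf7 and Mapk7 and added Vgll4 (higher) and Nr4a1 (lower), both named after their values were seen. Those lists had 70 higher and 9 lower with library size only, and 42 to 46 higher and 15 to 19 lower with 1 library left out. Library size only called 51.0% of all genes tested higher and 17.0% lower, against 30.5% and 29.7% with TMM. That scaling reversed Mknk1 (0.32), Atf1 (0.22), Eif4g3 (0.053), Hdac5 (0.16), Jun (0.040), Mapk7 (0.092) and Tab1 (0.049), whose TMM values were below 0. With 1 library left out, differences of log2 ratios ran from 0.71 to 1.56 (Mef2c/Mef2a), -1.39 to -1.30 (Mef2d/Mef2a), 2.04 to 2.92 (Mef2c/Mef2d), -1.34 to -0.92 (Atf2/Creb1), 0.78 to 0.89 (Mknk1/Mknk2) and -0.51 to -0.40 (Zfp36/Zfp36l1). Groups of 2 libraries limit every error given here. Fold changes of genes under 10 CPM rest on few counts.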
